A study of Mus musculus with 4 samples.

Results

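The transcripts of 10 genes of the Fanconi and BRCA1 repair pathway, namely Brip1, Brca1, Bard1, Fanca, Fancc, Fancd2, Fancg, Fanci, Fancl and Fancm, were followed in cultured neonatal mouse testis with and without WIN 18,446. All probe sets whose only gene symbol in the array annotation was one of these names were taken, 24 of the 45101 probe sets on the array. The genes were picked with their difference between the groups already known, so their values are given as a description and no p-value is attached to them. Testes from newborn mice of strain 129, 2 days old, spent 24 h in organ culture, either with WIN 18,446 at 1 µM (2 samples) or with its vehicle, dimethyl sulfoxide (2 samples). Both groups shared the strain, the age and a medium with fetal bovine serum, and total RNA was read on the Affymetrix 430 2.0 design for mouse. WIN 18,446 blocks the enzymes that turn retinaldehyde into retinoic acid. The labels give each sample a number but no animal or culture of origin, so the spread within a group may be technical.

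The Fanconi pathway repairs DNA interstrand crosslinks, mostly during replication. A core complex that holds Fanca, Fancc, Fancg and the ubiquitin ligase Fancl, anchored to DNA by Fancm, attaches ubiquitin to the paired proteins Fancd2 and Fanci. The lesion is then cut, and the break is mended by homologous recombination, in which Brca1, its partner Bard1 and the Brca1-bound helicase Brip1 take part. In the mouse, loss of several Fanconi genes depletes primordial germ cells, and Brca1 and Fancd2 also act on meiotic chromosomes.

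Promoter windows from RefSeq (build GRCm38.p6, 250 bases before to 50 after the annotated start) were at hand for 9 of the 10 genes, all but Fancd2. Those of Brip1, Bard1 and Fancg are shown because they hold the letters TTTNNCGC, which resemble the site of the E2F factors of the cell cycle, and that of Fanca because it has none and instead 2 close CCAAT boxes. They lie at chr11:86201144-86201443 (Brip1), chr1:71102923-71103222 (Bard1), chr4:43010252-43010551 (Fancg) and chr8:123318527-123318826 (Fanca), all on the minus strand, and are written 5′ to 3′ along the gene. Capitals mark the matched letters: TTTNNCGC, the cell cycle element CHR (TTTGAA or TTCGAA) and CCAAT, on either strand.

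Brip1: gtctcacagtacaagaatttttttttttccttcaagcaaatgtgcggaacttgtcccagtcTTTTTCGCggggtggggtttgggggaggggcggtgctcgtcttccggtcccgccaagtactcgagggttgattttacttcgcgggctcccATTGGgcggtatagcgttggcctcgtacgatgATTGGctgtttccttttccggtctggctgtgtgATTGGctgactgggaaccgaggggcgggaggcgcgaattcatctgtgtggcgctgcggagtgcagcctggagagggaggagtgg
Bard1: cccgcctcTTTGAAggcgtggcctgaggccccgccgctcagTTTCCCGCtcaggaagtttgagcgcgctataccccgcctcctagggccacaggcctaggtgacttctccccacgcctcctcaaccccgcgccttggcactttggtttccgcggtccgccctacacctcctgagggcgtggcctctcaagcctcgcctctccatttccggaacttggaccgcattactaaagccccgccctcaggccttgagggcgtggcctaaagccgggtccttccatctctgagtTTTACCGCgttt
Fancg: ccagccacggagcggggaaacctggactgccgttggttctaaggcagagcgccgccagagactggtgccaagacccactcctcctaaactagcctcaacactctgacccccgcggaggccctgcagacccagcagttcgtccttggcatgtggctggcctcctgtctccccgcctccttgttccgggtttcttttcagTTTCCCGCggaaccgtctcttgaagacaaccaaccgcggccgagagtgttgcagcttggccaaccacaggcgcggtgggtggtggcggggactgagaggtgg
Fanca: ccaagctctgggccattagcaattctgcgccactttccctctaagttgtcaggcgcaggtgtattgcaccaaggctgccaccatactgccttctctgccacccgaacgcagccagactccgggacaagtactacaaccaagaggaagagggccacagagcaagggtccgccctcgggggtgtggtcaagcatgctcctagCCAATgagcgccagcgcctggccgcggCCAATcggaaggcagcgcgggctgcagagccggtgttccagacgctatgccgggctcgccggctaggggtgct

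TTTNNCGC stood in 3 of the 9 windows, and in 5.17% of all 32851 windows of the same length. Bard1 held it as TTTCCCGC at base -209 and as TTTACCGC at base 39, Fancg as TTTCCCGC at base -52, and Brip1 as TTTTTCGC at base -189. CCAAT was found in 5 windows, those of Fanca, Brip1, Brca1, Fancm and Fancc, against 37.4% of all windows, and Brip1 held 3 copies at bases -99, -67 and -34. A CHR element was seen in the Bard1 window alone of the 9, against 19.2% of all windows. The Fancl window had 47.0% G and C and 3 CG pairs, below the medians over all windows of 52.7% and 7. The other 8 had 53.7% to 63.3% and 17 to 26 CG pairs, above both medians. TTTNNCGC itself holds a CG pair, and its share was not compared with windows of like CG content. No 2 matches overlapped in the 9 windows, and these matches are letters in a window, not sites shown to be bound.

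**Figure D1:**
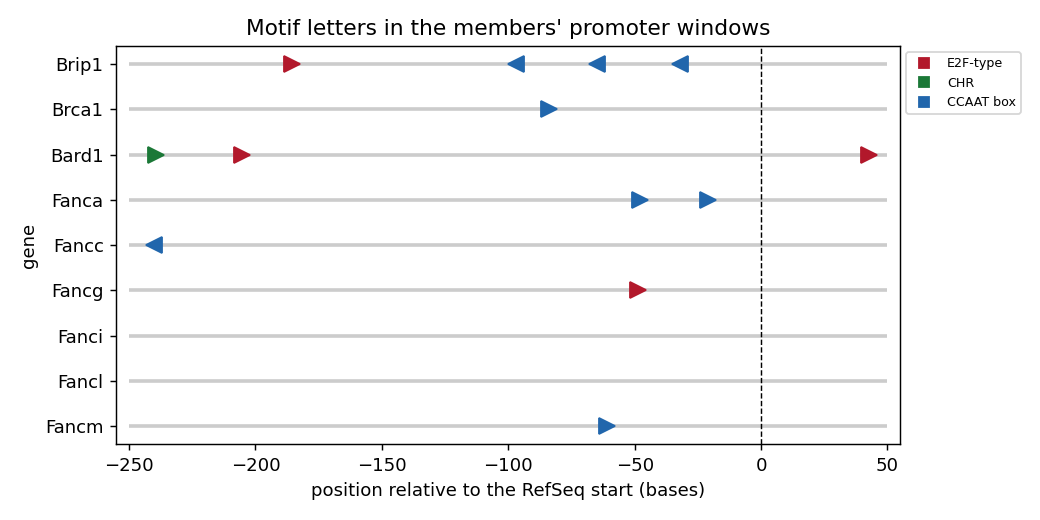
Positions of the matched letters in the promoter windows of 9 genes, in bases from the RefSeq start (dashed line). Triangles point along the strand that holds the letters; the E2F-type match appears in Brip1, Bard1 and Fancg, while the Fanci and Fancl windows hold none of the 3 motifs.

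All values below are log2 levels as the authors deposited them, and differences are WIN 18,446 minus vehicle. The probes of different sets bind with unequal strength, so levels are compared between arrays for 1 probe set and never between probe sets. Values bottom out near 2. Genes of Bacillus have no counterpart in mouse RNA, and the highest value among their 27 control probe sets was 2.22. Of the 24 member probe sets, 5 lay at or below 2.22 on all arrays and carry no information here (1 each for Brca1, Fanca, Fancc, Fancd2 and Fanci). A further 8 had a mean under 5, the minimum set for testing, and 11, from 9 genes, reached it. Median levels over all probe sets were 3.83 and 3.72 on the treated arrays and 3.72 and 3.76 on the vehicle arrays. The only Bard1 probe set fell short of the minimum. Brip1 passed the minimum through its treated arrays alone, since both vehicle arrays were below 5.

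Of the 10 brightest probe sets, 1 per gene, 9 stood higher in treated testes without overlap between the groups, and that of Fancl alone did not. Over all 20895 probe sets tested, the groups stood apart in this direction in 23.8% and in the opposite one in 29.3%. Of the 11 member probe sets tested, 9 were higher without overlap and 2 overlapped. Across all tested probe sets limma called 2.27% higher and 2.91% lower with WIN 18,446 at an adjusted p under 0.05. Among the members it called 3 of 11 higher, those of Brip1, Fancd2 and the brightest of Brca1, and 0 lower. Because the members were chosen on this contrast, nothing is read from that count. It was lower whichever array was left out, a setting that leaves 1 array in a group.

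**Figure D2:**
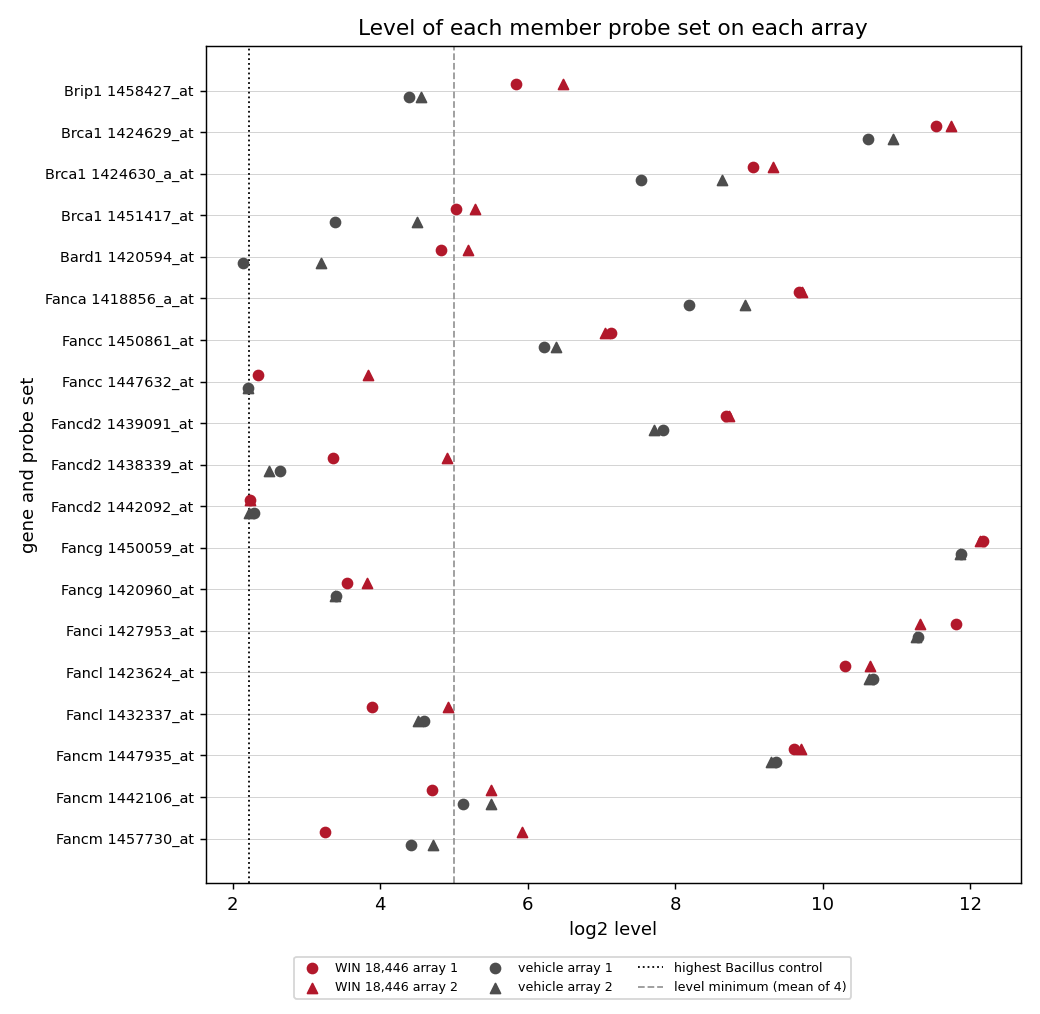
Log2 level of the 19 member probe sets that were above background on at least 1 array, with WIN 18,446 in red and vehicle in grey (circles, array 1; triangles, array 2). The dotted line is the highest Bacillus control (2.22) and the dashed line the level minimum of 5; the red points lie right of the grey ones for Brip1, Brca1, Bard1, Fanca, Fancc and Fancg.

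Brip1, the helicase that binds the BRCT repeats of Brca1, read 5.84 and 6.48 in treated testes, against 4.39 and 4.55 in vehicle testes (probe set 1458427_at). Both treated arrays were above both vehicle arrays, and the treated arrays were the farther apart. The means were 6.16 ± 0.45 with WIN 18,446 and 4.47 ± 0.11 with vehicle (SD, n = 2 each), a log2 difference of 1.69 (SE 0.30), or 3.23-fold. Leaving out treated array 1 gave 2.01, and leaving out treated array 2 gave 1.38. The vehicle level is low on this scale, where differences depend on how background was removed.

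The gene on the opposite strand, Brip1os, was also higher in treated testes. Its brighter probe set read 12.76 and 12.81 with WIN 18,446, against 11.98 and 12.17 with vehicle, a difference of 0.71 (SE 0.09), and its other probe set lay at background. Brip1os was looked up after the values of Brip1 were seen. Fancd2os, the opposite-strand neighbour of Fancd2, stayed low at 2.85 and 3.11 in treated testes, against 3.45 and 2.66 in vehicle testes, and the groups overlapped.

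Brca1, the ubiquitin ligase subunit that directs breaks to homologous recombination, had 3 probe sets above background, and all 3 were higher in treated testes without overlap. The brightest, 1424629_at, read 11.53 and 11.75 with WIN 18,446, against 10.62 and 10.96 with vehicle (difference 0.85, SE 0.15, 1.80-fold). Probe set 1424630_a_at read 9.05 and 9.33 in treated testes, against 7.53 and 8.63 in vehicle testes, a difference of 1.11 (SE 0.39). There the vehicle arrays decided the size, with a difference of 0.55 once array 1 was left out and of 1.66 once array 2 was. The dim set 1451417_at showed the same order, with 5.03 and 5.29 in treated testes, against 3.39 and 4.50 in vehicle testes. On all 3 sets vehicle array 1 was the lowest of the 4 arrays.

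Bard1, which pairs with Brca1 through its RING domain and is needed for its ligase activity, showed the largest difference of the 24 probe sets. It read 4.82 and 5.18 with WIN 18,446, against 2.14 and 3.20 with vehicle (1420594_at). Both treated arrays were above both vehicle arrays, of which array 1 lay below the Bacillus maximum of 2.22. The difference of 2.33 takes that background value as read. Against vehicle array 2 alone the difference was 1.80, and against vehicle array 1 it is only bounded, at 2.78 or more above the Bacillus maximum. With a mean under 5 the probe set was not tested, and the pile-up of values near 2 makes its fold uncertain.

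Fancd2 and Fanci form the complex that the pathway marks with ubiquitin, and their differences were unlike in size. Fancd2 read 8.69 and 8.73 with WIN 18,446, against 7.83 and 7.71 with vehicle (1439091_at). The arrays of each group lay close together, and the difference was 0.94 (SE 0.17, 1.92-fold). A dim second set, 1438339_at, read 3.35 and 4.91 in treated testes, against 2.64 and 2.48 in vehicle testes, while 1442092_at stayed between 2.22 and 2.28 on the 4 arrays. Fanci read 11.80 and 11.33 with WIN 18,446, against 11.30 and 11.26 with vehicle (1427953_at). The groups did not overlap, but treated array 2 was nearly at the vehicle level. The Fanci difference of 0.28 (SE 0.17) was 0.04 without treated array 1 and 0.52 without treated array 2. Treated array 1 also stood apart in the 5′ control of 18S ribosomal RNA, which read 6.55 and 8.67 on the treated arrays, against 8.12 and 8.17 on the vehicle arrays, and its part in the Fanci values was not tested. Whether Fancd2 and Fanci differ in their response was not tested either.

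In the core complex, Fanca and Fancc differed by more log2 units than Fancg, though genes were not tested against one another. Fanca, a scaffold of the complex, read 9.68 and 9.72 with WIN 18,446, against 8.19 and 8.95 with vehicle (1418856_a_at; difference 1.13, SE 0.27). The treated arrays were nearly equal, and the spread came from the vehicle arrays. Against vehicle array 1 alone the difference was 1.51, and against vehicle array 2 alone it was 0.76. Fancc, which joins a subcomplex with Fance and Fancf, read 7.13 and 7.04 with WIN 18,446, against 6.22 and 6.38 with vehicle (1450861_at; difference 0.79, SE 0.21). Its dim second set, 1447632_at, was at background on both vehicle arrays and read 2.34 and 3.83 on the treated arrays, at least 1.82-fold higher. That bound rests on treated array 2, since it was 1.09-fold on treated array 1 alone and 3.06-fold on treated array 2 alone. Fancg, the partner of Fanca, read 12.18 and 12.14 with WIN 18,446, against 11.87 and 11.86 with vehicle (1450059_at). That difference was small, 0.29 (SE 0.08, 1.22-fold), but the arrays of each group agreed closely. The dim set 1420960_at also differed by 0.29.

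Fancl, the ligase that carries out the ubiquitin transfer, was the 1 member whose brightest set was not higher. It read 10.30 and 10.64 in treated testes, against 10.68 and 10.63 in vehicle testes (1423624_at), a difference of -0.18 (SE 0.15) with overlapping groups. Treated array 1 alone was low, and without it the difference was -0.02. The dim Fancl set 1432337_at overlapped too, with 3.89 and 4.91 in treated testes, against 4.59 and 4.52 in vehicle testes.

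Fancm, a DNA translocase that brings the core complex to chromatin, gave different answers by probe set. Its brightest, 1447935_at, read 9.61 and 9.70 with WIN 18,446, against 9.37 and 9.30 with vehicle (difference 0.32, SE 0.14). Set 1442106_at read 4.70 and 5.50 in treated testes, against 5.12 and 5.50 in vehicle testes, a difference of -0.21 (SE 0.35) with overlap. The treated arrays of 1457730_at, at 3.25 and 5.92, lay on either side of the vehicle arrays, at 4.42 and 4.71. Both dimmer sets spread more between the treated arrays than the groups differed, so they show no direction.

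**Figure D3:**
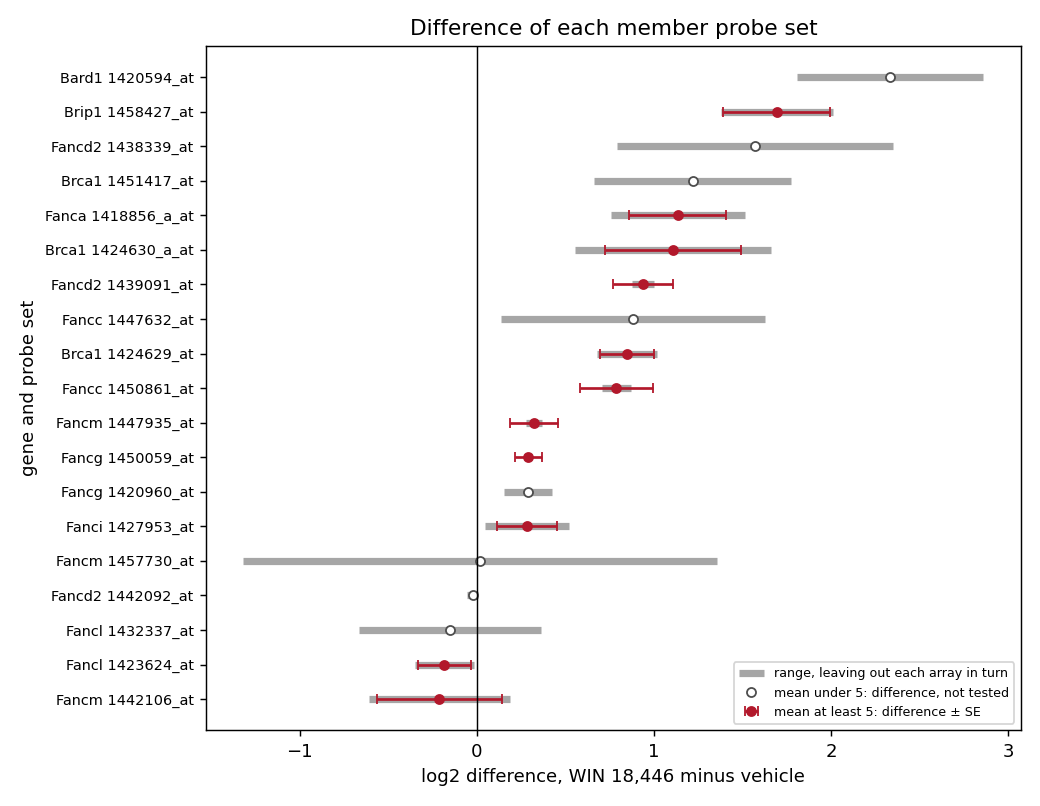
Log2 difference, WIN 18,446 minus vehicle, of the 19 member probe sets above background on at least 1 array. Red points have a mean of at least 5 and carry the standard error of limma; open points were not tested; grey bars span the values when each array is left out in turn. Bard1 (2.33) and Brip1 (1.69) lie farthest right, and the bars of the dim Fancm and Fancl sets cross 0.

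The members varied between arrays of 1 group as well. On the sets of Brca1, Bard1 and Fanca described above, vehicle array 2 exceeded vehicle array 1 by 0.34 to 1.11 units. The gap was 0.16 units for Brip1 and 0.16 for Fancc. For the brightest sets of Fancd2, Fancg, Fanci, Fancl and Fancm, vehicle array 2 minus vehicle array 1 was -0.12 to -0.01. S phase and mitosis markers were likewise lowest on vehicle array 1. Their mean log2 level over 18 tested genes of 20 was 12.52 and 12.62 in treated testes, against 11.72 and 11.94 in vehicle testes. The groups stood apart upward in 18 of these 18 genes, against 24.8% of all genes tested. Of the 18, 11 were called higher and 0 lower, among them E2f1 (1.14, adjusted p = 0.0242), the replication helicase subunit Mcm3 (0.82, adjusted p = 0.0243) and the proliferation marker Mki67 (0.96, adjusted p = 0.0327) in limma. Top2a, a DNA topoisomerase, rose by 1.07 (adjusted p = 0.0374), the helicase subunit Mcm5 by 0.79 (adjusted p = 0.0291) and Cdc20, an activator of the anaphase-promoting complex, by 0.76 (adjusted p = 0.0208) in the same limma fit. How far the share of dividing cells sets the values of the members was not tested. In whole testis, a change in the number of cells of a type and a change in RNA per cell cannot be told apart.

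The cell types of the testis were checked through their markers. Germ cell markers averaged 10.50 and 10.50 in treated testes, against 10.46 and 10.46 in vehicle testes (8 tested of 10), and 1 of the 8, Sall4, fell (-0.60, adjusted p = 0.0157 in limma). The difference was positive for 5 of the 8. The groups stood apart upward in 4 of them and downward in 2, against 24.8% and 31.8% of all genes tested. Among the 4 was the RNA-binding Dazl, at 12.54 and 12.53 in treated testes, against 12.30 and 12.18 in vehicle testes (difference 0.29, adjusted p = 0.113 in limma, not called). Sertoli cell markers averaged 12.47 and 12.40 with WIN 18,446, against 12.74 and 12.73 with vehicle (8 of 8 tested). Of the 8, 4 fell, against 3.46% of all genes tested: Cldn11 (-1.25), Sox9 (-1.15), Wt1 (-0.58) and Dhh (-0.43). The groups stood apart downward in 5 of the 8 and upward in 2. The difference was positive for 3 of the 8, among them the hormone gene Amh, at 11.12 and 10.60 with WIN 18,446, against 9.37 and 9.85 with vehicle (difference 1.25, adjusted p = 0.0575 in limma, not called). Leydig cell markers averaged 11.74 and 11.46 in treated testes, against 12.15 and 11.77 in vehicle testes (4 tested of 5). The difference was positive for 0 of these 4, the groups stood apart downward in 3, and limma called 0. For the peritubular markers the means were 10.33 and 10.18 in treated testes, against 10.82 and 11.00 in vehicle testes (3 tested of 4). The contractile gene Cnn1 was at background on all arrays. Des fell (-1.47), and the groups stood apart downward in 2 of the 3. Endothelial markers averaged 7.82 and 7.71 in treated testes, against 8.61 and 8.68 in vehicle testes (3 tested of 5). Of these 3, 0 had a positive difference, 3 stood apart downward and 0 were called. Of 4 macrophage markers only Mrc1 was tested. The part of these cell types in the members' differences was not tested.

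The rest of the pathway was read from 3 lists that leave out the members: other Fanconi genes, homologous recombination genes, and genes of the BRCA1-A complex and damage signalling. Of 68 genes tested, each by its brightest probe set, 14 rose, 0 fell and 54 were not called by limma, while 2.94% of all 10970 genes tested rose and 3.46% fell. The median log2 difference over the 68 genes was 0.26, against -0.02 over all genes. Mismatch repair, end joining and excision repair served for comparison: of 35 tested genes 3 rose, 0 fell and 32 were not called, with a median of 0.15. Over all 6 lists, 17 of 103 genes rose. That count was lower whichever array was left out, a setting that leaves 1 array in a group.

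Among 20 other Fanconi genes tested, 3 rose and 17 were not called, and the median difference was 0.04. All 3 work around the core complex or after it. Ube2t, the conjugating enzyme that works with Fancl, read 10.54 and 10.81 with WIN 18,446, against 9.83 and 9.89 with vehicle (0.82, adjusted p = 0.0427 in limma). Usp1, which removes ubiquitin from Fancd2, rose by 0.60 (adjusted p = 0.0254), and the nuclease subunit Eme1 by 1.87 (adjusted p = 0.0434). On this list the groups stood apart upward in 9 genes and downward in 6, against 24.8% and 31.8% of all genes. Among the 6 was Rfwd3, with a difference of -0.32 (adjusted p = 0.0514 in limma, not called).

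Of 24 homologous recombination genes, 6 rose, 0 fell and 18 were not called, with a median difference of 0.50. Rad51ap1 read 10.73 and 10.83 in treated testes, against 9.38 and 9.50 in vehicle testes (1.34, SE 0.13, adjusted p = 0.0142 in limma). The nuclease Exo1 (1.36), the DNA translocase Rad54l (1.26), the helicase Blm (1.11), Fignl1 (0.85) and Brca2, a mediator of recombination (0.60), also rose, with adjusted p-values of 0.0241 to 0.0434. The groups stood apart upward in 19 of the 24 genes and downward in 0, against 24.8% and 31.8% of all genes. Xrcc2 and Rbbp8 were not analysed here.

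Genes of the BRCA1-A complex and damage signalling gave 5 that rose, 0 that fell and 19 not called among 24, with a median difference of 0.19. The groups stood apart upward in 10 genes and downward in 0, against 24.8% and 31.8% of all genes. The largest difference, 2.58 for Rad1, was carried by treated array 1 and was not called. Rad1 read 11.30 and 5.38 with WIN 18,446, against 6.43 and 5.09 with vehicle. The 5 genes called were the fork protection pair Tipin (0.93, adjusted p = 0.0202 in limma) and Timeless (0.83, adjusted p = 0.0397), the checkpoint kinase Chek1 (0.67, adjusted p = 0.0441), Topbp1 (0.53, adjusted p = 0.0294) and Mdc1 (0.55, adjusted p = 0.0455). The pair Tipin and Timeless read 12.42 and 12.64 (Tipin) and 11.71 and 11.65 (Timeless) with WIN 18,446, against 11.54 and 11.66 (Tipin) and 10.68 and 11.02 (Timeless) with vehicle.

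In the comparison lists, the 3 genes called differed by 0.33 to 0.62 log2 units. The mismatch sensor Msh6 rose by 0.33 (adjusted p = 0.0443 in limma), the flap nuclease Fen1 by 0.62 (adjusted p = 0.0352) and the abasic site nuclease Apex1 by 0.33 (adjusted p = 0.0435). Pms1 stood 0.79 higher and was not called (adjusted p = 0.0857). Of 8 end joining genes 0 were called by limma (1 at an unadjusted p under 0.05), with Xrcc5 at 0.30 (adjusted p = 0.216) and Xrcc6 at 0.18 (adjusted p = 0.334). Over the 35 comparison genes the groups stood apart upward in 15 and downward in 4, against 24.8% and 31.8% of all genes. In excision repair these counts were 10 and 3 among 22 genes, and the difference was positive for 12. The excision repair gene Neil3 stood 1.06 higher and was not called (adjusted p = 0.201 in limma). The difference between the pathway lists and the comparison lists was not tested.

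**Figure D4:**
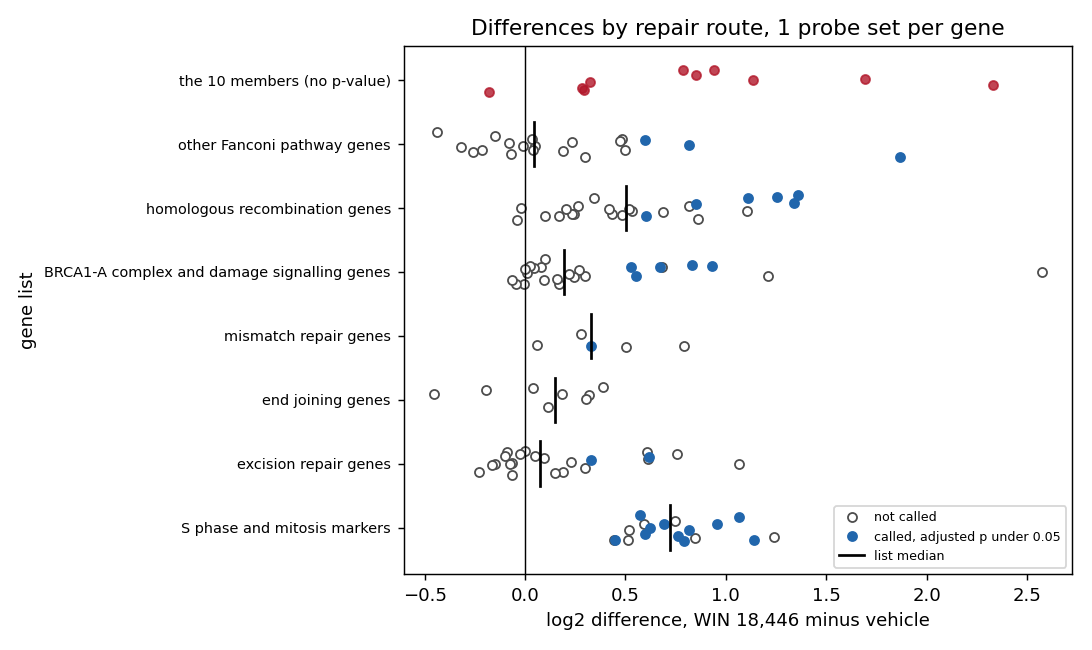
Log2 difference, WIN 18,446 minus vehicle, of each gene by repair route, 1 probe set per gene; blue points were called by limma, open points were not, and black bars are list medians. The 10 members (red, described with no p-value) run between -0.18 and 2.33. Bard1, at 2.33, had a mean under 5, while the other rows hold only tested genes, with a mean of at least 5. The median is 0.50 for homologous recombination, 0.04 for the other Fanconi genes and 0.72 for S phase and mitosis markers.

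The genes whose 4 arrays followed Brip1 most closely were sought among 10969 others, by the root mean square difference of the deviations from each gene's own mean. The nearest was Bmp7, a growth factor of the BMP family, at 0.06 log2 units, with 7.95 and 8.62 in treated testes, against 6.66 and 6.76 in vehicle testes. Rtkn2 (0.08), the matrix proteoglycan Bcan (0.10), Rgcc (0.13) and Ace, the angiotensin-converting enzyme (0.14), came next. Likeness over 4 arrays is a description of these samples and says nothing of shared control.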

How the data were processed

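Total RNA of 4 samples of cultured testis was measured, 1 array per sample. The deposited table holds log2 levels per probe set, normalized between arrays by the authors; per the submitters' processing notes RMA and GCRMA were used, without a version or a statement of which made the table. The log2 unit was read from the values. Probe sets were named by the platform annotation GEO holds, and those with several symbols stayed unnamed. Control probe sets (64) were left out. Those averaging 5 or more across all arrays (20895 of 45037) entered limma 3.58.1 under R 4.3.3, with lmFit and eBayes, a variance trend, two-sided tests and Benjamini-Hochberg adjustment over all of them; an adjusted p under 0.05 is a call. The fit has 2 residual degrees of freedom, and the number of arrays limits the precision. No exact permutation test is given, as 0.333 is the smallest p that 2 arrays against 2 allow.

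The members, lists and alternatives were chosen with earlier results of these data known. A gene on a list is represented by its brightest tested probe set. Of each pathway, repair and S phase list the called genes are named, up to 6 by size, or the 2 of smallest p where fewer than 2 were called; all members, and the 5 genes nearest to Brip1 in pattern, are named too. Of the cell type markers the called genes are named. Amh, Dazl, Neil3 and Rfwd3 were added after their values were seen. The fit was tested on simulated data. The alternatives were 3 level filters, robust moderation, a fit with no variance trend, a replicate block, a second quantile normalization, equal medians, leaving out 1 array at a time, averaging the probe sets of a gene, and a shorter promoter window.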

Additional observations from a re-analysis of the deposited data

How the results depend on the processing

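Counts of calls depend on single arrays of both groups, on the level filter and on the variance model. Without the level filter limma called 3 of all 45037 probe sets, 0 of 24 members and 0 of 107 repair list genes. At an unadjusted p under 0.05 in that fit the counts were 5250, 8 and 38. Without a variance trend it called 372 of all probe sets, 1 member and 1 repair list gene. Equal medians gave 1246 calls over all probe sets, 2 members and 17 repair list genes. A level minimum of 7 gave 1263, 2 and 25, and 1 of these 25 repair list genes was lower. In the repair lists 1 gene was also called lower under robust moderation, a second quantile normalization and averaging of a gene's probe sets. The same held when at least 2 of the 4 arrays had to reach 5. Leaving out each array in turn, the calls ranged between 0 and 1398 over all probe sets, 0 and 1 for members and 0 and 8 for repair list genes. The lone array of a group is then taken to vary as much as the pair in the other. The cause of these losses was not tested. With the replicate number as a block limma called 1467 probe sets in all, 3 members and 24 repair list genes; the numbers are only names, since same-numbered samples did not deviate together (r = 0.01 across tested probe sets, which are not independent). The count of 9 positive differences among the 10 brightest probe sets was also 9 under a second quantile normalization and under equal medians. Where the groups do not overlap, leaving out 1 array cannot turn the sign, so signs kept under that setting are not counted here. Signs changed under at least 1 setting in Fancm, Fancl and the near-background Fancd2 set, none of them called. Low levels, as for Bard1 and Brip1, limit what the folds can show.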
